A study of Homo sapiens with 6 samples.

Results

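The genes described here were 9 components of the claudin-based tight junction: the claudins CLDN1, CLDN2, CLDN3, CLDN4, CLDN7 and CLDN12, occludin (OCLN), junctional adhesion molecule A (F11R) and the scaffold ZO-1 (TJP1). They were listed by name, 9 of the 56303 genes in the count table, and the rule used none of their values. The set was nevertheless chosen with earlier results of these data known. The RNA came from SW480, a cell line from a human colorectal adenocarcinoma, infected with lentivirus that carried either a non-silencing hairpin (shCtrl) or a hairpin against MORC2, a nuclear ATPase (shMORC2). Both groups were puromycin-selected stable clonal lines without further treatment, and the methods do not say how many clones or MORC2 hairpins stood behind the libraries, so clone and knockdown cannot be told apart. Each group had 3 libraries of polyadenylated RNA from what the methods call replicate experiments. Nothing says whether these were separate infections, so the p-values measure the spread between these libraries.

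Tight junctions seal the space between neighbouring epithelial cells near their apical side. Claudins are membrane proteins with 4 passes through the bilayer whose strands form the seal, and family members differ in whether they tighten the barrier or form pores for ions. Occludin and the junctional adhesion molecules sit in the same contacts, and ZO-1 ties these membrane proteins to the actin cytoskeleton from the inside. In intestinal epithelium CLDN3, CLDN4 and CLDN7 are typical barrier claudins, whereas CLDN2 forms a cation and water channel.

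Libraries held 42092664 to 43434425 counts, of which mitochondrial genes took 7.04% to 8.90%. The MORC2 transcript (chromosome 22, 30925130 to 30968298, minus strand, GRCh38) stood at 46.1, 46.4 and 48.8 CPM (counts scaled to a common library size) in shCtrl. In shMORC2 it stood at 35.0, 29.3 and 27.2 CPM, with no overlap between the groups. This is 64.7% of control by the fit (log2 -0.63, SE 0.10, edgeR adjusted p = 0.000216), so the knockdown was partial. Exons of MORC2-AS1 on the other strand share 1616 bases with MORC2, and whether reads were counted by strand was not given in the sources used here. The cells carried the epithelial markers KRT8, KRT18, KRT19, VIL1 and EPCAM at high levels, but LGALS4, another marker of colorectal epithelium, had at most 18 counts in a library. The 10 epithelial markers summed to 20130 to 26180 CPM in shCtrl and 19170 to 26060 CPM in shMORC2. Some markers of other cell types were at or near 0, with at most 2 counts of DCN, CDH5 or KDR and at most 6 of PTPRC in any library. Others in the same lists were present. The 6 fibroblast markers summed to 19.99 to 20.9 CPM in shCtrl and 22.7 to 24.9 CPM in shMORC2, mostly from COL1A1 and LUM. The 6 endothelial markers summed to 16.6 to 20.5 CPM and 21.8 to 23.1 CPM in the same order, mostly from PECAM1. The 5 leukocyte markers summed to 8.46 to 9.19 CPM and 9.03 to 10.3 CPM, mostly from LYZ, with 345 to 411 counts per library. In bulk RNA, fewer cells of a type and less RNA per cell cannot be told apart.

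Of the 9 genes, 8 passed the filter on low counts and 6 changed after MORC2 knockdown. CLDN1, CLDN3, CLDN4, CLDN7 and TJP1 fell, F11R rose, and CLDN12 and OCLN did not pass the test. CLDN2 was too low to be tested. The call was an edgeR adjusted p under 0.05 over all genes tested, which 39.5% of the 21005 genes passed (19.6% lower and 19.9% higher in shMORC2). The median log2 fold change of the 8 genes was -0.37, beside -0.01 over all genes tested. In 4 of the 8 every shMORC2 library was below every shCtrl library, and in F11R every one was above. Such separation was seen in 50.2% of all tested genes, 25.1% in each direction. No gene of the 9 changed by as much as 1 on the log2 scale, which 7.75% of all tested genes did together with the adjusted p. DESeq2 called the same 6 genes, as did a fit with the replicate number as a block.

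**Figure D1:**
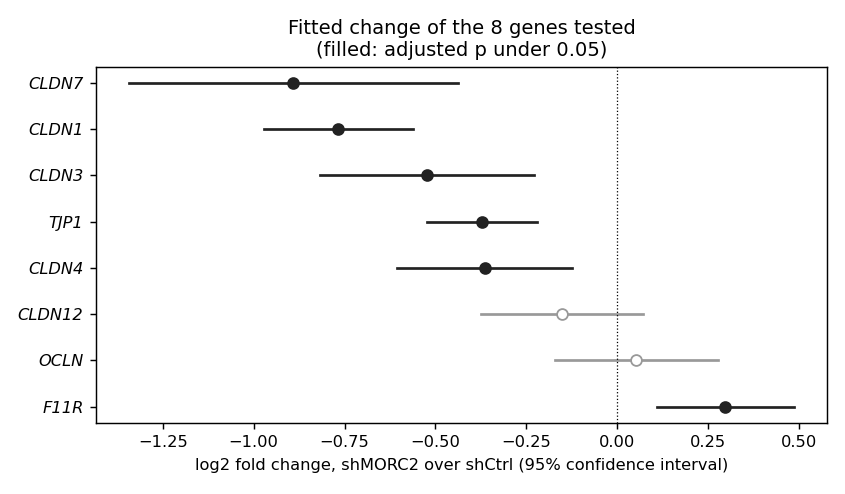
Fitted log2 fold change of each tested gene, shMORC2 over shCtrl, on the horizontal axis with its 95% confidence interval (3 libraries per group). Filled points passed the adjusted p of 0.05, open points did not. CLDN7 and CLDN1 lie farthest to the left at -0.89 and -0.77, and F11R is the only filled point to the right of 0.

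CLDN1 (chromosome 3, 190305701 to 190322475, minus strand), a sealing claudin found in many epithelia, had the highest CPM of the claudins in shCtrl. In shMORC2 CLDN11 stood above it. It stood at 70.2, 90.9 and 87.3 CPM in shCtrl and at 47.1, 50.02 and 48.8 CPM in shMORC2. All 3 shMORC2 libraries lay below the lowest shCtrl library, and they were closer to each other (SD 1.45 CPM) than the shCtrl libraries were (SD 11.1 CPM). The log2 fold change was -0.77 (SE 0.10, 95% interval -0.97 to -0.56, edgeR adjusted p = 4.51e-05), or 58.8% of control. CLDN1 kept its call in all 13 alternative fits, with log2 fold changes from -0.88 to -0.70.

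CLDN7 (chromosome 17, 7259903 to 7263983, minus strand), a basolateral claudin of the intestine, had the lowest counts of the genes tested and the largest relative change. It had 96, 125 and 106 counts in shCtrl and 50, 57 and 71 counts in shMORC2, without overlap. Mean CPM was 2.57 ± 0.38 against 1.39 ± 0.27 in shMORC2 (SD, n = 3 each). CLDN7 thus had a log2 fold change of -0.89 (SE 0.21, 95% interval -1.34 to -0.44, edgeR adjusted p = 0.00451), or 53.9% of control. Its exons share 269 bases, 10.8% of their length, with RP1-4G17.5 on the same strand and 38 with ELP5 on the other. Neither of those genes was called (edgeR adjusted p = 0.487 and 0.656). Among 14331 tested genes that averaged 100 counts or more, the 3 whose log2 CPM over the 6 libraries, each gene centred on its own shCtrl mean, lay nearest to that of CLDN7 were RP11-108L7.4, RP1-92O14.6 and MED8. Their root mean square differences from it, which leave out the level of each gene, were 0.05, 0.08 and 0.10 on the log2 scale.

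CLDN3 and CLDN4, barrier claudins and receptors for a Clostridium perfringens enterotoxin, are neighbours on chromosome 7, 29271 bases apart (CLDN3, 73768997 to 73770270, minus strand, a single exon; CLDN4, 73799542 to 73832693, plus strand). CLDN3 stood at 13.5, 17.9 and 19.1 CPM in shCtrl and at 9.96, 12.6 and 12.6 CPM in shMORC2. Its groups did not overlap, and its log2 fold change was -0.52 (SE 0.14, 95% interval -0.82 to -0.23, edgeR adjusted p = 0.00839). CLDN4 stood at 42.9, 57.7 and 57.7 CPM in shCtrl and at 37.1, 43.6 and 42.1 CPM in shMORC2. Here the groups overlapped, since shMORC2 replicate 2 lay above shCtrl replicate 1. The log2 fold change of CLDN4 was -0.36 (SE 0.11, 95% interval -0.60 to -0.12, edgeR adjusted p = 0.0195), or 77.7% of control. That call was lost without shCtrl replicate 2, shCtrl replicate 3 or shMORC2 replicate 3, with log2 fold changes of -0.30, -0.29 and -0.38 and edgeR adjusted p = 0.0905, 0.0862 and 0.0543.

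CLDN12 (chromosome 7, 90383721 to 90513402, plus strand), a claudin linked to calcium passage, stood at 19.95, 25.02 and 23.3 CPM in shCtrl. It stood at 19.2, 22.6 and 19.6 CPM in shMORC2, within or just below that range. The log2 fold change of -0.15 (SE 0.10, 95% interval -0.38 to 0.07) did not pass the test (edgeR adjusted p = 0.268). GTPBP10 and CTB-13L3.1, which share 347 and 371 exonic bases with it on the same strand, were both called lower (edgeR adjusted p = 0.00568 and 0.0269). CLDN2 (chromosome X, 106900164 to 106930861, plus strand) had 9, 3 and 8 counts in shCtrl and 3, 16 and 8 in shMORC2. At this depth no difference in CLDN2 was detectable.

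Replicate 1 had the lowest value of its group for CLDN1, CLDN3, CLDN4 and CLDN7, in shCtrl and in shMORC2 alike. The same held for CLDN12 and OCLN, which were not called. Compared within replicate numbers 1, 2 and 3, CLDN1 differed by -0.57, -0.86 and -0.84 on the log2 scale, and CLDN4 by -0.21, -0.40 and -0.45. CLDN7 differed by -0.96, -1.11 and -0.63, and CLDN3 by -0.44, -0.50 and -0.60. All 3 pairs were lower in shMORC2 for each of these 4 claudins. They were also lower for TJP1 and for CLDN12, which was not called (-0.05, -0.15 and -0.25). For CLDN1, CLDN3, CLDN7 and TJP1 the groups did not overlap, so any pairing would have given 3 lower pairs. How often all 3 pairs went the same way over all genes was not counted.

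**Figure D2:**
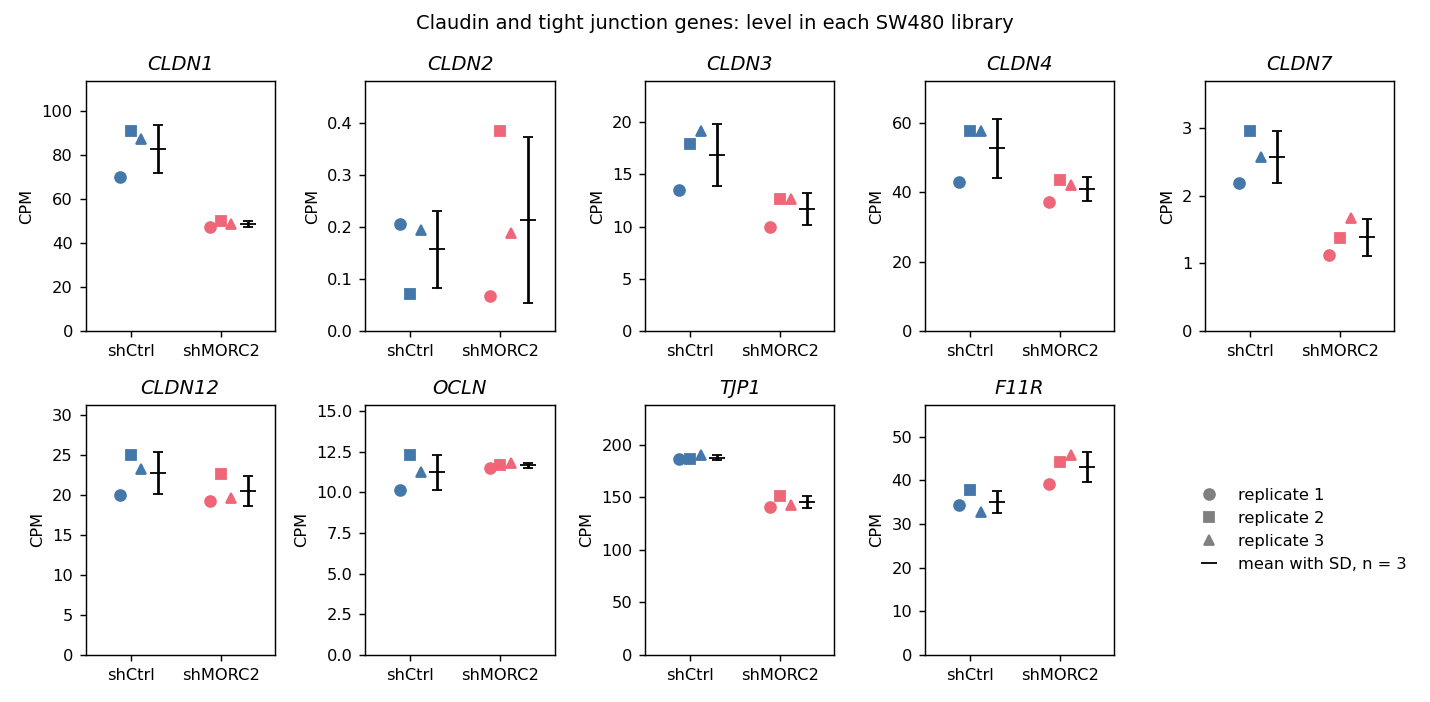
Level in CPM (vertical axes, each from 0) of the 9 genes in every library, with 1 marker shape per replicate number, and the mean with SD (n = 3) beside each group. The shMORC2 points of CLDN1, CLDN3, CLDN7 and TJP1 all sit below the shCtrl points, those of F11R all sit above, and CLDN2, CLDN4, CLDN12 and OCLN overlap.

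The promoters of the 4 claudins that fell are shown to compare what lies just upstream of them, from the RefSeq table of GRCh38.p14, 5′ to 3′ on the gene's strand and ending at the base before the transcription start. Each line holds 250 bases. Capitals mark the searched letters GGGCGG (the GC box, bound by Sp1-type factors), CAGGTG (the E-box type bound by Snail and ZEB proteins) and CCGGAAG (the core bound by ETS factors), or their reverse complements, and no matches overlap. The CLDN1 window is chr3:190322447-190322696 (minus strand), CLDN3 chr7:73770271-73770520 (minus), CLDN4 chr7:73830746-73830995 (plus) and CLDN7 chr17:7262479-7262728 (minus).
CLDN1: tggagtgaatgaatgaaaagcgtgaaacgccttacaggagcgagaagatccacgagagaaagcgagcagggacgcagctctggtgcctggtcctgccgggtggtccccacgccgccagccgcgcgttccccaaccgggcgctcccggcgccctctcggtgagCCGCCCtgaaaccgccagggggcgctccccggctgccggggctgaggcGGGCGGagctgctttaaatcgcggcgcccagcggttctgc
CLDN3: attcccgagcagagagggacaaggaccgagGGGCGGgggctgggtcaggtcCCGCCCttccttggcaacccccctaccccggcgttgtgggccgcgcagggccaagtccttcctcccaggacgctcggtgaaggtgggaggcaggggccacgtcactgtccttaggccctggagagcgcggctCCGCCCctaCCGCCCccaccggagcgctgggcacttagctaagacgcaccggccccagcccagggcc
CLDN4: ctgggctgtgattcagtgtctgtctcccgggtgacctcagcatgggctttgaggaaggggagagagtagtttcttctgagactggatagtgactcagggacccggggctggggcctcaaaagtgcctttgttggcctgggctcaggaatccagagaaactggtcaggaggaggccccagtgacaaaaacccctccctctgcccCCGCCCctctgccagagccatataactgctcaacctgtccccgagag
CLDN7: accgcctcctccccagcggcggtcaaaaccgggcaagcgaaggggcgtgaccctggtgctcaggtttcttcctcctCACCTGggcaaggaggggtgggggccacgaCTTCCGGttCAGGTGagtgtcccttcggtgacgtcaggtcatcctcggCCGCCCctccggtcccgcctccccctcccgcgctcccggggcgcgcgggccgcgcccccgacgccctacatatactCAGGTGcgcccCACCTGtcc

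All 4 windows held GC box letters, with 2 matches in CLDN1, 4 in CLDN3, 1 in CLDN4 and 1 in CLDN7, beside 42.6% of the 35114 windows in the table with at least 1. That share does not allow for GC content, whose median over all windows was 58.0%. GC content was 68.8% in CLDN1, 71.6% in CLDN3, 58.8% in CLDN4 and 71.2% in CLDN7. It was 70.4% in TJP1, 70.8% in OCLN, 54.4% in CLDN12 and 48.8% in CLDN2. CLDN7 differed from the other three in its E-box letters, with 4 matches that begin 174, 135, 20 and 9 bases before the start. Of all windows, 17.5% held at least 1 such match and 43 (0.122%) held 4 or more. The cut at 4 equals the number in CLDN7 itself, so that share is a description and not a test. CLDN7 also held the ETS letters once, as 8.52% of windows did. The TJP1 window held 3 GC boxes and the OCLN window 1 E-box match. The windows of CLDN2, which was not tested, and CLDN12, which was not called, held none of these letters. The table has 2 windows for CLDN2, CLDN7 and OCLN and 4 for TJP1, of which the one nearest the canonical start was used. For CLDN2 that window lies 2042 bases away from the canonical start, and for the others it ends there. The core promoter letters TATAAA were in 10.7% of all windows and in none of the 8 found here. The letters bound by grainyhead factors, AACCGGTT (0.117% of all windows), were in none of these 8 either. Nor were those bound by CDX factors, TTTATG (9.64%). These are matches of letters and not bound sites, and F11R had no window in the table.

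OCLN (chromosome 5, 69492292 to 69558104, plus strand), a membrane protein of the MARVEL family that regulates rather than builds the seal, stood at 10.1, 12.3 and 11.3 CPM in shCtrl. It stood at 11.5, 11.7 and 11.8 CPM in shMORC2, inside the shCtrl range. The log2 fold change was 0.05 (SE 0.10, 95% interval -0.17 to 0.28, edgeR adjusted p = 0.723).

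F11R (chromosome 1, 160995211 to 161021348, minus strand), an immunoglobulin-type adhesion protein of the junction, was the 1 gene of the 9 that rose. It stood at 34.4, 37.8 and 32.8 CPM in shCtrl and at 39.2, 44.1 and 45.8 CPM in shMORC2, without overlap. The level was 1.23-fold higher in shMORC2 (log2 0.30, SE 0.09, 95% interval 0.11 to 0.49, edgeR adjusted p = 0.0162). The call was lost without shCtrl replicate 3 (log2 0.26, edgeR adjusted p = 0.0731), without shMORC2 replicate 2 (0.28, adjusted p = 0.0593) or without shMORC2 replicate 3 (0.25, adjusted p = 0.0708). RP11-544M22.13 shares 1853 exonic bases with F11R on the same strand, 36.6% of the exon length of F11R, and was called higher too (1.28-fold, edgeR adjusted p = 0.00592). How reads in those bases were counted was not tested.

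TJP1 (chromosome 15, 29699367 to 29968865, minus strand) encodes ZO-1, the scaffold that binds claudin and occludin tails. It had the highest CPM of the 9 genes, at 186.7, 186.3 and 190.5 CPM in shCtrl. The shMORC2 libraries stood at 141.2, 151.7 and 142.8 CPM. The groups did not overlap, and the SD within each (2.31 and 5.64 CPM) was small beside the difference. The log2 fold change was -0.37 (SE 0.07, 95% interval -0.52 to -0.22, edgeR adjusted p = 0.00105), or 77.3% of control. TJP1 kept its call in all 13 alternative fits.

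The deposited RPKM scales counts by exon length and by the total counts of a library, without the TMM scaling used for CPM. Compared per length by RPKM, CLDN1 came first in shCtrl at a mean of 22.6, followed by TJP1 at 16.7. CLDN3 at 13.2 and CLDN4 at 11.2 overlapped in their libraries, and F11R (6.93), CLDN12 (3.38), OCLN (1.67), CLDN7 (1.03) and CLDN2 (0.0461) followed without overlap. In shMORC2 the RPKM of CLDN1 (13.2) and TJP1 (12.9) overlapped, and so did those of neighbours among CLDN3 (9.16), CLDN4 (8.68) and F11R (8.46). The lower part of the order was the same, with CLDN12 at 3.03, OCLN at 1.72, CLDN7 at 0.554 and CLDN2 at 0.0617 RPKM. The top of the order rests on the exon length used. The table counts 4702 exonic bases for CLDN4, over all isoforms, where its canonical transcript has 1695, and with canonical lengths CLDN4 had the highest mean, 31.1 RPKM in shCtrl and 24.1 RPKM in shMORC2. In shCtrl its libraries (25.96 to 34.2) then overlapped those of TJP1 (25.9 to 26.7), which overlapped those of CLDN1 (20.9 to 26.5), while in shMORC2 these genes did not overlap.

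**Figure D3:**
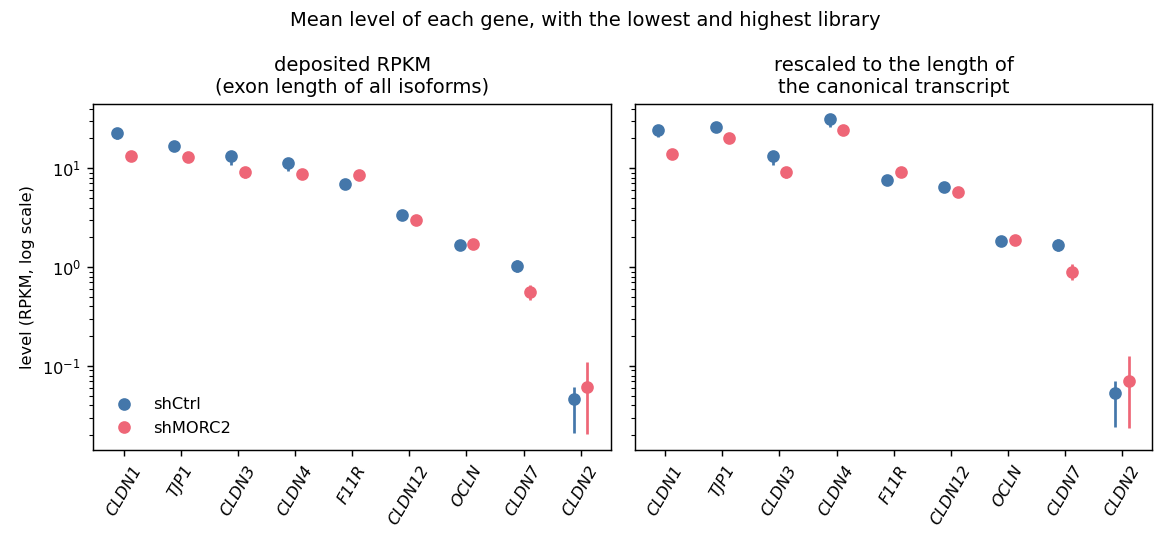
Mean level in RPKM on a log axis, with a line from the lowest to the highest library, for the 9 genes in shCtrl and shMORC2. The left panel uses the deposited values and the right panel the canonical transcript length, under which the mean of CLDN4 moves above CLDN1 and TJP1 while CLDN2 stays lowest.

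Over all 24 claudins in the lists, the summed RPKM was 63.6 ± 6.62 in shCtrl and 47.8 ± 1.73 in shMORC2 (SD, n = 3 each), with every shMORC2 library lower. CLDN1 made up 34.99%, 36.2% and 35.5% of that sum in shCtrl and 28.6%, 27.2% and 27.2% in shMORC2, without overlap. CLDN4 took 17.6% ± 0.84 and 18.1% ± 0.48 (SD, n = 3), and CLDN3 took 20.7% ± 1.53 and 19.1% ± 1.52. CLDN11, a claudin known from myelin and testis, took 12.5% ± 1.67 in shCtrl and 18.9% ± 1.21 in shMORC2. With canonical lengths the CLDN1 share was 24.04% and 17.7% and the CLDN11 share 17.4% and 24.9%, in the same directions. CLDN4 then took the largest share, 31.07% and 30.3%, and CLDN3 13.2% and 11.5%. Shares of the same sum are tied to each other, and the mean RPKM of CLDN11 itself was 7.88 in shCtrl and 9.01 in shMORC2. No test was run on the shares.

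**Figure D4:**
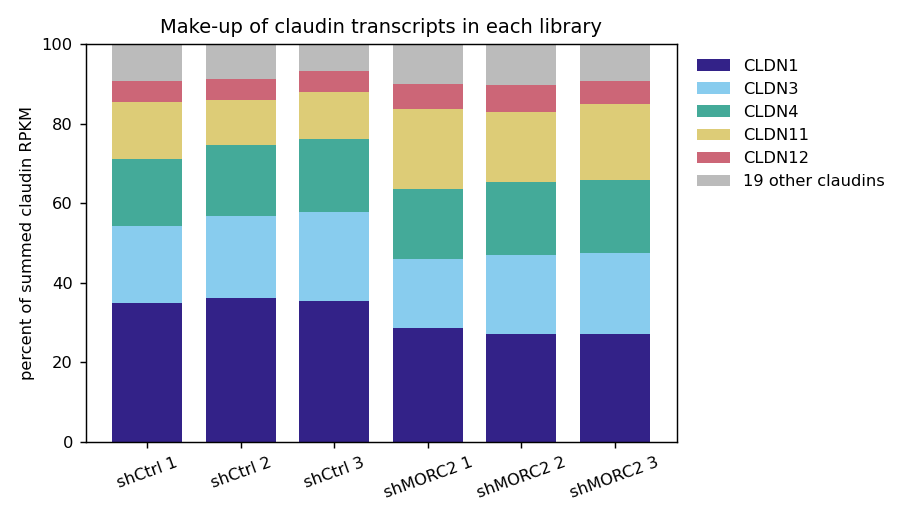
Percent of the summed claudin RPKM (vertical axis, from 0 to 100) held by CLDN1, CLDN3, CLDN4, CLDN11, CLDN12 and 19 other claudins together, as 1 stacked bar per library. The CLDN1 segment spans 34.99% to 36.2% in the shCtrl bars and 27.2% to 28.6% in the shMORC2 bars, while the CLDN11 segment is 11.2% to 14.4% and 17.6% to 20.01%.

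Among 18 other claudins, 7 were tested, of which CLDN11 and CLDN19 rose and CLDN15, CLDN16 and CLDN22 fell. Of all tested genes, 39.5% were called, 19.6% lower and 19.9% higher. No library held more than 16 counts of any of the other 11, and CLDN17 and CLDN25 had none. CLDN16, known for magnesium reabsorption in the kidney, went from 55, 42 and 32 counts in shCtrl to 11, 17 and 14 in shMORC2 (log2 -1.62, edgeR adjusted p = 0.00212). Its kidney partner CLDN19 stood at 2.10, 3.31 and 2.07 CPM in shCtrl and at 4.48, 5.18 and 3.99 CPM in shMORC2 (log2 0.87, edgeR adjusted p = 0.00355). CLDN11 had a mean of 47.4 ± 0.84 CPM in shCtrl against 54.5 ± 1.33 CPM after knockdown (SD, n = 3 each), a log2 fold change of 0.20 (edgeR adjusted p = 0.0389) that kept its call in 7 of 13 alternatives. CLDN23, the remaining claudin among the highest by RPKM, did not pass the test (edgeR adjusted p = 0.374). CLDN15 (edgeR adjusted p = 0.0305) lost its call without shCtrl replicate 2 or shMORC2 replicate 2 or 3. CLDN22 had 57, 48 and 33 counts in shCtrl and 34, 22 and 17 in shMORC2 (edgeR adjusted p = 0.0342). Its call was lost without shCtrl replicate 1 or 2 or shMORC2 replicate 2 or 3.

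Of 14 other membrane proteins of the junction, 11 were tested, of which CXADR, ILDR1 and ILDR2 rose and MARVELD3 fell. Their median log2 fold change was 0.11, and these 4 of 11 stand beside the 39.5% of all tested genes called. ILDR1 and ILDR2, angulins that recruit tricellulin to tricellular contacts, rose most, with log2 fold changes of 1.99 (edgeR adjusted p = 0.000804) and 1.33 (edgeR adjusted p = 1.94e-05). ILDR1 was low, with 23, 14 and 10 counts in shCtrl and 85, 38 and 67 in shMORC2. ILDR2 stood at 6.18, 4.30 and 5.20 CPM in shCtrl and at 15.3, 11.7 and 12.3 CPM in shMORC2. The adhesion protein EPCAM, the angulin LSR and the polarity protein CRB3, the most abundant of this list by RPKM, had log2 values of 0.11, 0.11 and -0.19 and did not pass (edgeR adjusted p = 0.251, 0.294 and 0.245).

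Among 26 plaque and polarity proteins, which gather on the inner face of the junction, 25 were tested, 14 fell and 3 rose. Their median log2 fold change was -0.29, and over all tested genes 19.6% were called lower and 19.9% higher. PARD6B, a subunit of the PAR polarity complex, stood at 13.4, 19.1 and 15.7 CPM in shCtrl and at 7.23, 6.77 and 6.69 CPM in shMORC2 (log2 -1.22, edgeR adjusted p = 1.33e-05). The angiomotin AMOT rose from 10.2, 11.5 and 12.05 CPM to 23.2, 26.95 and 24.5 CPM (log2 1.15, edgeR adjusted p = 2.53e-06). The ZO-1 partner YBX3 fell (log2 -0.45, edgeR adjusted p = 0.000931). CGNL1, the most abundant of this list by RPKM, had a log2 value of 0.17 and did not pass (edgeR adjusted p = 0.108), but passed with the replicate block (edgeR adjusted p = 0.0144). AMOTL1, named here after its values were seen, had 32, 34 and 30 counts in shCtrl and 0, 0 and 2 in shMORC2. Against a floor of 3 counts per library it was at least 10.8-fold lower, and with AMOTL1 at that bound the median of the list was -0.29 as well. Over these lists of 58 partner genes, 43 were tested, 18 fell and 8 rose, beside 39.5% of all tested genes called.

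**Figure D5:**
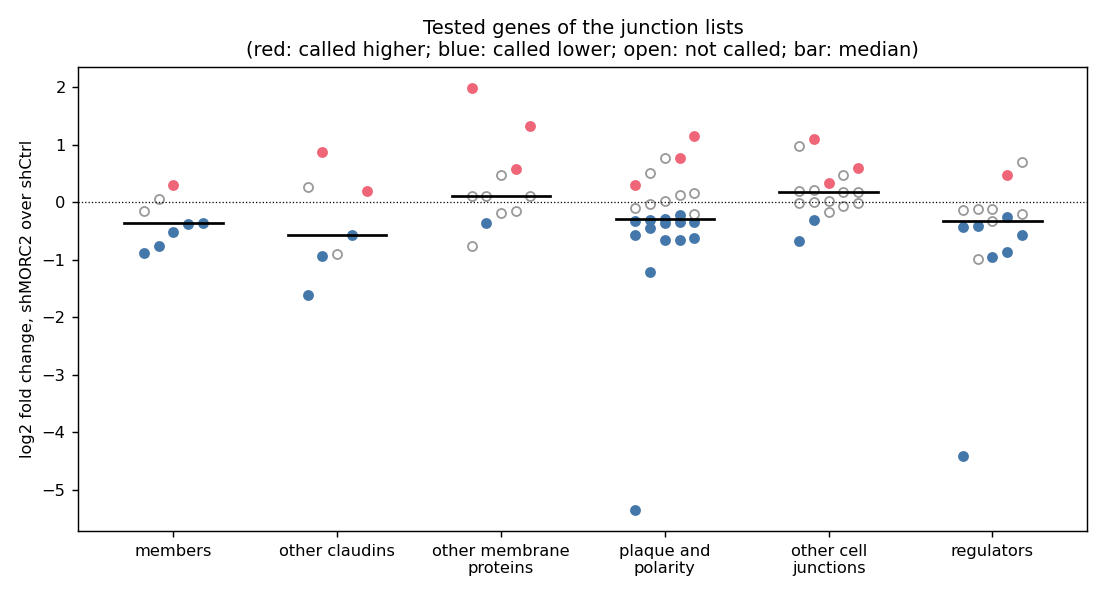
Fitted log2 fold change, shMORC2 over shCtrl, of every tested gene in the lists (horizontal axis: members, other claudins, other membrane proteins, plaque and polarity proteins, other cell junctions, regulators). Red was called higher, blue lower, open points were not called, and black bars are medians, from -0.58 for other claudins to 0.18 for other junctions; the 2 points below -4 are AMOTL1 and GRHL2, whose fitted values rest on at most 2 counts per shMORC2 library.

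Of 18 genes of adherens junctions, desmosomes and gap junctions, 17 were tested, CDH3, DSC2 and GJB2 rose, and PKP2 and PKP3 fell, with a median log2 fold change of 0.18. These 5 of 17 stand beside the 39.5% of all tested genes called. With the replicate block 10 were called, 7 higher and 3 lower, beside 49.0% of all tested genes in that fit. P-cadherin (CDH3) rose from 27.6, 35.04 and 30.9 CPM to 60.3, 70.6 and 69.2 CPM (log2 1.10, edgeR adjusted p = 3.36e-06). Desmoplakin (DSP) and the catenins CTNNA1 and CTNNB1, the most abundant of this list by RPKM, had log2 values of -0.16, 0.19 and 0.18 and did not pass (edgeR adjusted p = 0.101, 0.0902 and 0.0647), though all 3 passed with the block.

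Of 18 regulators of transcription or splicing known to act on epithelial junction genes, 15 were tested, 7 fell and CDX2 rose. Their median log2 fold change was -0.33, and 39.5% of all tested genes were called. The groups of CDX2 overlapped (log2 0.47, edgeR adjusted p = 0.0158). CDX2 lost its call in both limma fits and without shCtrl replicate 2 or 3 or shMORC2 replicate 3. ELF3, an epithelial ETS factor, stood at 68.3, 122.6 and 100.5 CPM in shCtrl and at 42.3, 53.9 and 53.6 CPM in shMORC2 (log2 -0.96, edgeR adjusted p = 0.000522). The epithelial splicing regulator ESRP1 fell (log2 -0.58, edgeR adjusted p = 9.85e-05), and KLF5 had a log2 value of -0.12 (edgeR adjusted p = 0.435). The repressors SNAI2 and ZEB1, known to act on E-boxes of claudin genes, were named after their values were seen. SNAI2 fell (log2 -0.87, edgeR adjusted p = 0.000401). ZEB1 was close to the threshold (log2 -0.26, edgeR adjusted p = 0.0436) and lost its call in 8 of 13 alternative fits, among them those without shCtrl replicate 1, 2 or 3 or shMORC2 replicate 2 or 3. GRHL2, named after its values were seen, had 24, 18 and 49 counts in shCtrl and 2, 2 and 0 in shMORC2, at least 10.3-fold lower against the floor of 3 counts per library. Among the cell type markers CEACAM5 fell (log2 -1.08, edgeR adjusted p = 0.00265), KRT20 and CDX2 rose, and the other 6 of the 9 epithelial markers tested, KRT8, KRT18 and KRT19 among them, did not pass. With the replicate block KRT19 (log2 -0.27, edgeR adjusted p = 0.000103) and CDH1 (log2 0.20, edgeR adjusted p = 0.00613) passed too. Of the 8 fibroblast, endothelial and leukocyte markers tested, VWF was called, higher in shMORC2 (log2 0.54, edgeR adjusted p = 0.0238). That call was lost without shCtrl replicate 1 or 2 or shMORC2 replicate 2 or 3 (log2 0.51, 0.48, 0.55 and 0.45, edgeR adjusted p = 0.0580, 0.0856, 0.0548 and 0.1002). With the replicate block PECAM1 (edgeR adjusted p = 0.00587) and LUM (edgeR adjusted p = 0.0306) were called higher as well. The part of these markers in the junction results was not tested.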

How the data were processed

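Polyadenylated RNA of 3 shCtrl and 3 shMORC2 libraries of SW480 cells was measured. Raw counts for each gene symbol, as deposited by the authors, came with RPKM values computed from those counts and the exon length of each gene. The submitters' processing notes name Trimmomatic 0.36, STAR 2.5.3a, featureCounts, Subread 1.5.1, edgeR 3.12.1 and GRCh38. The annotation release, the strand setting and the treatment of molecular identifiers were not given in the sources used here. Recomputed RPKM equalled the deposited RPKM for 100% of values within a relative tolerance of 1e-06. Counts had 0 columns of other samples. Deposited splicing tables hold the authors' own comparison between unnamed groups and were not used.

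The test on the counts was edgeR 4.0.16, run in R 4.3.3 (TMM, filterByExpr, quasi-likelihood, group as the only term), with Benjamini-Hochberg adjustment over 21005 genes, and an adjusted p under 0.05 was called. The SE is the size of the log2 fold change divided by the square root of F. On simulated data for the shCtrl and shMORC2 comparison, over 20650 genes, the test recovered 85.9% of 198 changed genes. All planted changes were at least 1 on the log2 scale. Recovery of smaller changes, such as those of the tested members, was not measured. Alternatives were DESeq2 1.42.0, no TMM, other filters, a replicate block, limma 3.58.1 on log2(RPKM + 1) or log2(RPKM + 0.1), an absolute log2 fold change of 1 or more, and omission of each library. Canonical lengths, added after seeing the data, replaced the exon length. Levels are CPM on TMM-scaled library sizes, and floors of 3 counts cover counting error only. Same-numbered libraries deviated together from their group means (correlations 0.215, 0.111 and 0.102 for replicates 1, 2 and 3). For libraries of different number the correlation was at most 0.0527. The numbers were taken to pair the libraries from these values alone. Only the replicate block and the comparisons within replicate numbers used the pairing, and all other SE, intervals and p-values leave it out. Replicates of one group were not repeats of a single library (chi-square per degree of freedom 6.90 to 24.3).

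The members, the lists and the tests were chosen with earlier results of these data known. Named genes were every member, MORC2, from each other list the called genes with an absolute log2 fold change of at least 1 and a mean of at least 20 counts and the 3 highest by RPKM, and the 3 genes nearest in profile to CLDN7. Of these, 1 is not reported here. Genes named outside this rule, as the members of a small count or singled out, were chosen after their values were seen. Exon overlaps came from the deposited coordinates and canonical transcripts from GENCODE v44.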

Additional observations from a re-analysis of the deposited data

How the results depend on the processing

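At the adjusted p alone, the calls of CLDN1, CLDN3, CLDN7 and TJP1 held in every alternative fit that gave a value, and CLDN7 had none in the limma fits, where its mean RPKM was under 1. Leaving out 1 library gave 6268 to 8433 of all genes called, 4 to 6 of the 9 genes, 19 to 27 partners, 4 to 7 other junction genes and 6 to 10 regulators. The same step gave log2 fold changes of -0.50 to -0.29 for CLDN4, 0.25 to 0.36 for F11R and -0.02 to 0.12 for OCLN, whose direction reversed without shCtrl replicate 1 (-0.019).

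Requiring an absolute log2 fold change of at least 1 left 1627 of all genes, 0 of the 9 genes (6 without that requirement in edgeR, and 6 in DESeq2), 6 partners, 1 other junction gene and 1 regulator. limma on log2(RPKM + 0.1) called 17 partners, and both limma fits called 5 regulators. With the replicate block, 10287 genes (49.0%) and 10 other junction genes were called, and the block changed no call among the 9 genes.

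With canonical lengths the RPKM in shCtrl and shMORC2 was 31.1 and 24.1 for CLDN4, 1.67 and 0.895 for CLDN7, 6.45 and 5.77 for CLDN12, 1.82 and 1.88 for OCLN, 26.2 and 20.1 for TJP1, 7.57 and 9.24 for F11R, and 14.1 in shMORC2 for CLDN1. The claudin shares were then 24.04% and 17.7% for CLDN1, 13.2% and 11.5% for CLDN3, 31.07% and 30.3% for CLDN4, and 17.4% and 24.9% for CLDN11.

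Of 409 values of genes named from the other lists, 368 kept direction and side of the threshold, 15 lost the call, 18 gained it and 8 reversed. The reversed log2 values were those of ESAM (-0.0040 and -0.16), KRT18 (-0.068, -0.036 and -0.0028, within -0.07 to 0.19 when 1 library was left out) and KRT8 (0.037, 0.031 and 0.11, within -0.15 to 0.11). Depth limits CLDN2, with at most 16 counts in a library.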
